A study of Mus musculus with 6 samples.

Results

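The metabolic enzymes described here are 6 of the 15 genes that the array carries as reference probes, each printed as 20 identical spots. They are G6pd2, Gapdh, Gk, Hprt, Gusb and Ldhal6b. The members were chosen because they encode enzymes of metabolism and not for any change, although earlier results of these data were known. All 6 were well above background on all 6 arrays. They stand among 59631 probes that were normalised together, of which 45640 were tested.

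Liver RNA was hybridised to 6 single-colour arrays, 3 for Apcfl/fl mice with hepatocellular carcinoma (HCC) and 3 for Apc+/+ mice without it, all on the C57Bl/6 background and aged 12 months. According to the study's methods the Apcfl/fl allele is hypomorphic, which leaves less Apc function to restrain Wnt/β-catenin signalling, and no Cre driver is named for these mice. Tumour tissue is a mixture of cells, and in such bulk RNA fewer cells of a type and less RNA per cell cannot be told apart. Apc itself was not analysed here.

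Several of these genes are used in many laboratories as constant references for expression work, although each of them has a metabolic duty. Glucose-6-phosphate dehydrogenase opens the pentose phosphate pathway, which makes NADPH and ribose, and glyceraldehyde-3-phosphate dehydrogenase, the Gapdh product, carries out a central step of glycolysis. Glycerol kinase, the Gk product, traps glycerol in the liver for lipid and glucose synthesis, Hprt salvages purine bases, Gusb cleaves glucuronides in the lysosome, and Ldhal6b belongs to the lactate dehydrogenases.

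All signals below are processed intensities on the log2 scale, averaged over the unflagged spots of a probe and quantile normalised between arrays. Changes are Apcfl/fl HCC minus Apc+/+ liver. The arrays of Apcfl/fl replicates 1 and 2 lay closer together than the technical noise, with a mean chi-square of 0.774 per probe over 29685 probes, and were counted as 1 sample, so that 2 HCC samples were compared with 3 liver samples. The same chi-square was 1.99 between Apc+/+ replicates 2 and 3 and at least 6.37 for any other pair of arrays. All 3 HCC arrays and Apc+/+ replicate 1 lay in row 1 of a slide, and Apc+/+ replicates 2 and 3 lay in row 2, so the change of each gene named below is also given with the row as a block where this moved it by more than 1.5 times or ended its call. This value equals the one from the 4 arrays of row 1 alone, and row 2 held liver only. The study's methods give 3 livers per group, of which 2 in HCC were here counted as 1. The labels do not say that each array came from a separate mouse, and p-values measure the spread between these samples.

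The RefSeq windows of 250 bases before the start (GRCm38.p6) are shown for G6pd2 and Gusb, which had the 2 largest changes among the members, and for G6pdx, the X-linked gene from which the autosomal G6pd2 arose by retroposition. Capitals mark TGACNNNGC on either strand.

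G6pd2, chr5:61808593-61808842, plus strand: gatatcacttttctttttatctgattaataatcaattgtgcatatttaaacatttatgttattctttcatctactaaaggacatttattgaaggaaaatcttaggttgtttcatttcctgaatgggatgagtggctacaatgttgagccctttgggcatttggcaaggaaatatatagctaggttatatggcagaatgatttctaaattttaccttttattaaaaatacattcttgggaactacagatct
G6pdx, chrX:74428881-74429130, minus strand: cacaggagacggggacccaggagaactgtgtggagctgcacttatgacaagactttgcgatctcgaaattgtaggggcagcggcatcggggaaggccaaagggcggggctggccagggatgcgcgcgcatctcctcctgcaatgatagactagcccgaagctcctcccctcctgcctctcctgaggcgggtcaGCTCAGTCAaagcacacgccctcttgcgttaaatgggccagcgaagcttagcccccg
Gusb, chr5:130003050-130003299, minus strand: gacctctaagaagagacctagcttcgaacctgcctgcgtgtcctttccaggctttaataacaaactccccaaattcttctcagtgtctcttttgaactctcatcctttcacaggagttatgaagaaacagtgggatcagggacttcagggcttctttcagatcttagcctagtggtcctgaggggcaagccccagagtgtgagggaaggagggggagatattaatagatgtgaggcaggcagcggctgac

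The G6pd2 window had a GC content of 30% and 0 CpG pairs, and 1.5% of all 32851 promoter windows had a lower GC content. The G6pdx window had 61.2% GC and 15 CpG pairs, and that of Gusb had 49.6% and 3. Of the other members, Gk had 67.2% and 21, Hprt 59.6% and 17, Gapdh 55.6% and 8, and Ldhal6b 43.6% and 2. On both strands the windows were searched for TATAAA (in 12.4% of all windows), CTTTGAT (3.2%), CTTTGAA (4.5%), CACGTG (6.0%) and TGACNNNGC (10.2%). CTTTGAT and CTTTGAA, letters bound by the TCF/LEF factors of the Wnt pathway, were in none of the 6 member windows. CACGTG and TGACNNNGC were each in the Gk window once, and TATAAA occurred 3 times in that of Ldhal6b with 2 of the matches overlapping. These matches describe letters in the windows only.

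G6pd2 had the largest difference between the groups among the 6 enzymes. Its signal was 8.90, 8.93 and 7.76 in Apcfl/fl HCC replicates 1, 2 and 3 and 6.77, 6.67 and 6.49 in Apc+/+ liver. All HCC arrays lay above all liver arrays, and HCC replicate 3 lay more than 1 log2 unit below the other HCC arrays. The mean was 8.34 ± 0.82 (SD, n = 2) in HCC and 6.64 ± 0.14 (SD, n = 3) in liver. The change was 1.70 (SE 0.38, 95% interval 0.71 to 2.68), a fold of 3.24, with an unadjusted p of 0.00666 and an adjusted p of 0.106 by limma. It therefore did not pass the threshold of an adjusted p below 0.05 with a fold of at least 2. With the 6 arrays taken as 6 samples it was 1.89 with an adjusted p of 0.0269 by limma. On the liver arrays the probe exceeded the brightest negative-control probe of the same array by only 1.08, 1.18 and 1.36 log2 units. The size of the change is therefore uncertain.

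Whether the G6pd2 probe reads G6pd2 alone is uncertain, since the gene is a copy of G6pdx. Neither the sequences of these genes nor that of the probe were compared here. G6pd2 lies on chromosome 5 (61808843 to 61810477) as a copy spanning 1635 bases, and in mice it is known from spermatogenic cells. A single-spot probe named for G6pdx gave 14.64, 14.79 and 14.85 in HCC and 11.78, 11.35 and 11.21 in liver. G6pdx rose in HCC with a log2 change of 3.34 (SE 0.25) and a fold of 10.1 (adjusted p 0.0184 by limma). With the slide row as a block its change was 3.01 with an adjusted p of 0.144, and the adjusted p was 0.0528 to 0.134 when HCC replicate 3 or any 1 of the Apc+/+ replicates was left out, so that the call was lost in each of these. The HCC arrays ranged from 14.64 to 14.85 at the G6pdx probe. At G6pd2, HCC replicate 3 lay 1.16 below the mean of the other HCC arrays. The G6pdx probe is named because the authors' table of called probes lists it, so its direction is not independent evidence.

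Gusb, the lysosomal β-glucuronidase, had the second largest difference. Its signal was 12.23, 12.24 and 11.95 in Apcfl/fl HCC and 11.23, 10.43 and 10.40 in Apc+/+ liver. The groups did not overlap, and the highest liver array was replicate 1. The mean was 12.09 ± 0.20 (SD, n = 2) in HCC and 10.69 ± 0.47 (SD, n = 3) in liver. The change was 1.40 (SE 0.33, 95% interval 0.56 to 2.25), a fold of 2.65, with an unadjusted p of 0.00779 and an adjusted p of 0.113 by limma. With 6 arrays it was 1.45 with an adjusted p of 0.0270. With the slide row as a block, where Apc+/+ replicate 1 is the only liver array of row 1, the change was 0.86 (adjusted p 0.370).

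**Figure D1:**
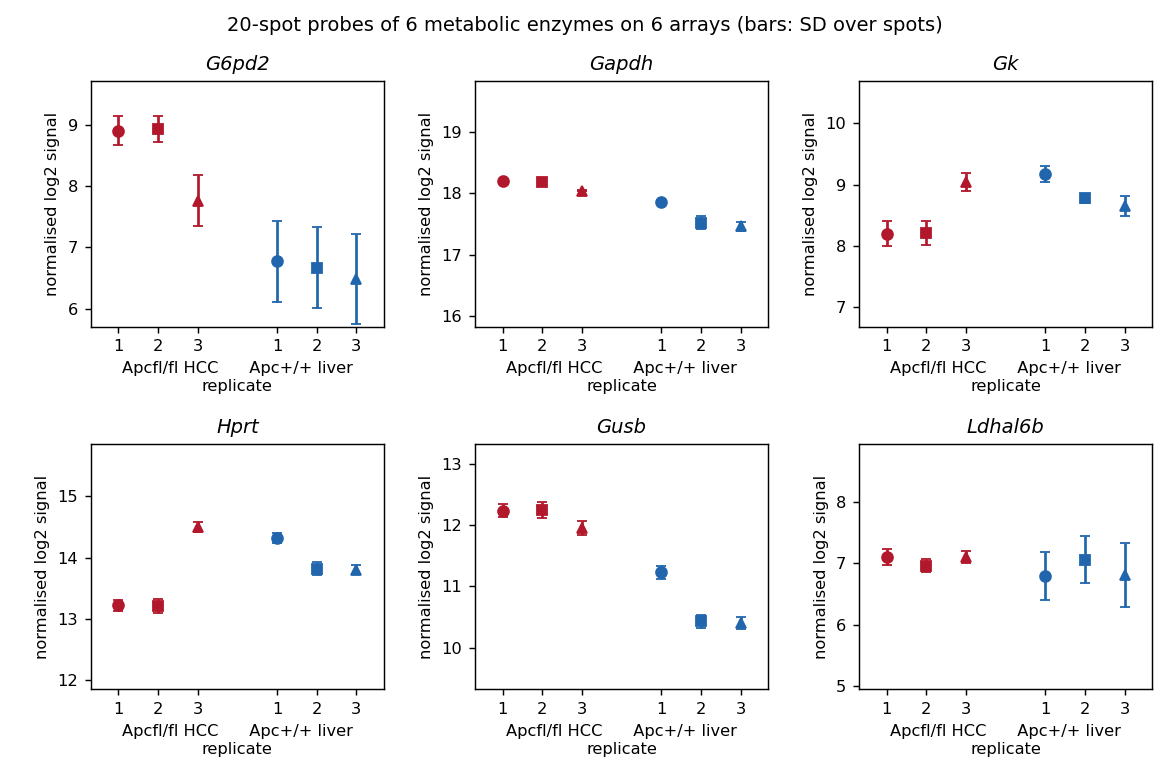
Normalised log2 signal (y axis, 4 log2 units in each panel) of the 20-spot probes on the 6 arrays (x axis, replicates 1 to 3 of Apcfl/fl HCC in red and of Apc+/+ liver in blue). Points are means of unflagged spots and bars are the SD over those spots. The groups do not overlap for G6pd2, Gapdh and Gusb, and HCC replicate 3 stands apart from replicates 1 and 2 for G6pd2, Gk and Hprt.

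A second, single-spot probe for Gusb, named in the authors' table, differed in the same direction. It gave 9.65, 9.57 and 7.93 in HCC and 7.11, 6.56 and 6.26 in liver, again without overlap. Its change was 2.13 (SE 0.57, adjusted p 0.143). HCC replicate 3 lay 1.69 below the mean of the other HCC arrays at this probe and 0.29 below it at the 20-spot probe.

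Gapdh, the glycolytic enzyme most used as a loading reference, lay slightly higher on the HCC arrays. Its signal was 18.20, 18.18 and 18.04 in Apcfl/fl HCC and 17.85, 17.52 and 17.46 in Apc+/+ liver. The groups did not overlap, and the gap between them was 0.19. The change was 0.51 (SE 0.22, 95% interval -0.05 to 1.06), a fold of 1.42, and did not pass the test (adjusted p 0.312 by limma). It was 0.83 (adjusted p 0.171) when each array was centred on its 75th percentile, and 0.27 (adjusted p 0.826) with the slide row as a block. Gapdh has many processed copies in the mouse genome, which its probe may also read.

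Hprt, which returns hypoxanthine and guanine to the nucleotide pool, did not separate the groups. Its signal was 13.22, 13.22 and 14.50 in Apcfl/fl HCC and 14.32, 13.82 and 13.81 in Apc+/+ liver. HCC replicate 3 was the highest of all arrays and HCC replicates 1 and 2 were the lowest. The change was -0.12 (SE 0.44, 95% interval -1.24 to 1.0, adjusted p 0.910 by limma). It was 0.23 after centring on the 75th percentile, 0.046 without Apc+/+ replicate 1, -0.76 without HCC replicate 3 and -0.46 with the slide row as a block, and none of these passed the test.

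At Gk, too, HCC replicate 3 was the highest HCC array. Its signal was 8.20, 8.21 and 9.04 in Apcfl/fl HCC and 9.17, 8.77 and 8.65 in Apc+/+ liver. HCC replicate 3 lay within the range of the liver arrays and HCC replicates 1 and 2 lay below it. The change was -0.24 (SE 0.33, 95% interval -1.10 to 0.61, adjusted p 0.756 by limma). It was -0.66 without HCC replicate 3, -0.09 without Apc+/+ replicate 1, -0.55 with the slide row as a block and -0.63 when arrays were centred on the other reference probes, and none of these passed the test.

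A second, single-spot probe for Gk differed from the 20-spot probe. It is named in the authors' table for another RefSeq transcript of the gene and gave 6.00, 5.87 and 6.83 in HCC and 4.77, 4.10 and 3.81 in liver. All HCC arrays lay above all liver arrays, with a change of 2.16 (SE 0.42, adjusted p 0.0792). It was well above background on 5 of the 6 arrays. Its liver mean of 4.23 was below 5.50, the mean of the brightest negative-control probe, so the size of this change is uncertain. The difference between the changes at the probes was not tested, and the single-spot probe is listed because the authors had called it on these arrays.

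**Figure D2:**
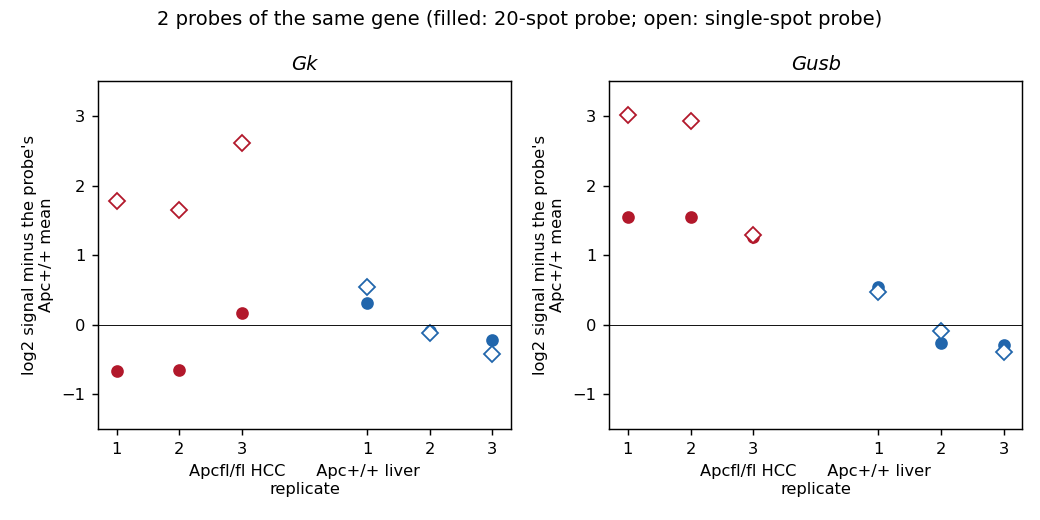
Log2 signal minus the mean of the Apc+/+ arrays at the same probe (y axis) for the 6 arrays (x axis, Apcfl/fl HCC in red, Apc+/+ liver in blue) at the 20-spot probe (filled circles) and the single-spot probe (open diamonds) of Gk and Gusb. At Gusb both probes are higher in HCC, with changes of 1.40 and 2.13, whereas at Gk the change is -0.24 at the 20-spot probe and 2.16 at the single-spot probe.

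Ldhal6b, an A-like lactate dehydrogenase known mainly from testis, was nearly level across arrays. Its signal was 7.10, 6.97 and 7.10 in Apcfl/fl HCC and 6.80, 7.06 and 6.81 in Apc+/+ liver. The groups overlapped, and the whole range over arrays was 0.31, smaller than that of all but 4.56% of tested probes. The change was 0.18 (SE 0.20, 95% interval -0.32 to 0.68, adjusted p 0.691 by limma). With the row of the slide as a block it was 0.27. It was 0.80 from the 1 to 3 unflagged spots per array in columns 1 to 60 (adjusted p 0.164), 0.02 with flagged spots kept and -0.22 when arrays were centred on the other reference probes. The probe exceeded the brightest negative-control probe of the same array by 1.1 to 1.68 log2 units, so that it was not far from the level of non-specific signal.

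Of the 6 enzymes none passed the adjusted threshold with 5 samples, where 1.92% of all tested probes passed (878 of 45640). At an unadjusted p below 0.05, 2 did, against 18.2% of all probes. These were G6pd2 and Gusb, which also passed the threshold in the study's methods, an unadjusted p of at most 0.05 with a fold of at least 2, as did 11.2% of all probes and, counted in the higher direction alone, 5.36%. With 6 arrays 2 of 6 passed the adjusted threshold, against 7.54%. The groups did not overlap for 3 of 6 members, against 33.8% of all tested probes. All 3 were higher in HCC, against 17.4% of all tested probes that did not overlap in that direction. In size, the G6pd2 change exceeded that of 94.9% of tested probes and the Gusb change that of 91.9%.

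**Figure D3:**
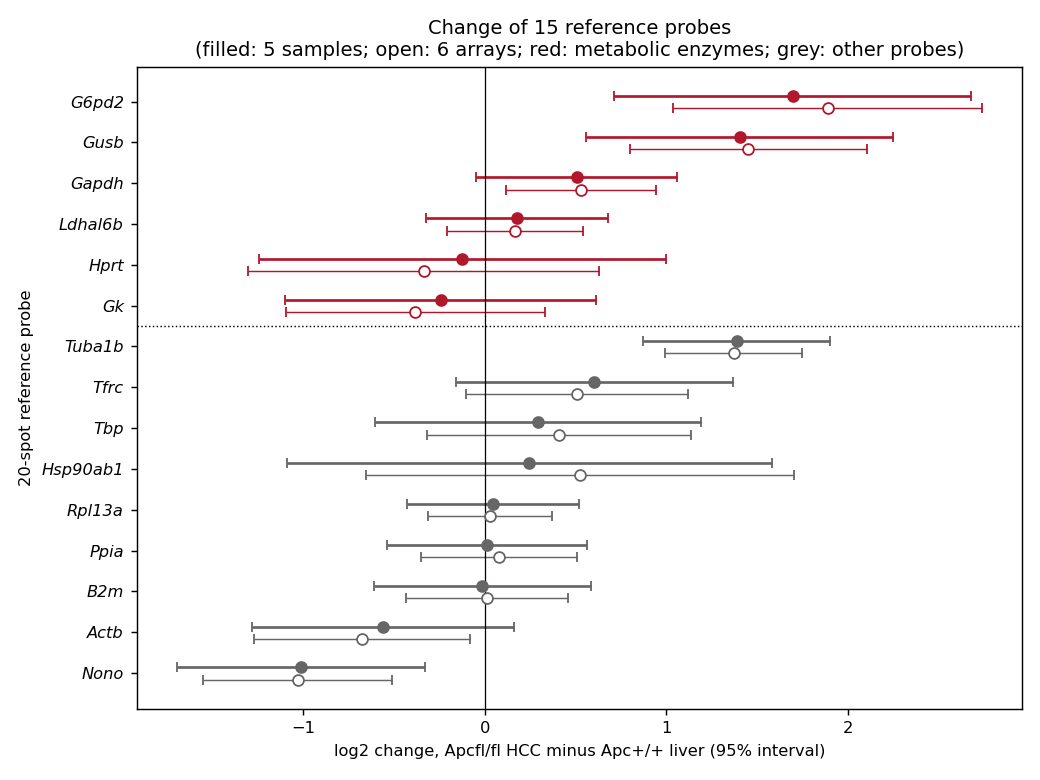
Log2 change, Apcfl/fl HCC minus Apc+/+ liver (x axis), with 95% intervals from limma for the 15 reference probes (y axis), for 5 samples (filled) and for 6 arrays (open). The enzymes are in red above the dotted line and the other 9 probes in grey below it. The intervals of G6pd2 and Gusb lie above 0 in both fits, and those of Gk, Hprt and Ldhal6b span 0.

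The median change of the 6 enzymes was 0.34, beside 0.06 for all tested probes and 0.05 for the other 9 reference probes. Among those 9 the changes ranged from -1.01 to 1.39, 1 passed the adjusted threshold (Tuba1b) and the groups did not overlap for 3. With the slide row as a block the change of Tuba1b was 1.58 and its call was lost. The call was also lost when Apc+/+ replicate 1 or 3 was left out. Without Apc+/+ replicate 2 only 1 of all tested probes passed, and whether it was Tuba1b is not given here. The outcome for Tuba1b without HCC replicate 3 is not given either. Centring the arrays on the other 9 reference probes, in place of quantile normalisation, moved the median change of all tested probes from 0.06 to -0.34. The changes of the enzymes were then 1.31 for G6pd2, 1.18 for Gusb, 0.43 for Gapdh and -0.63 for Gk, all with adjusted p-values above 0.05.

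Across the 6 arrays Gapdh, Gusb and G6pd2 had like patterns, as had Gk and Hprt. Gapdh was most like Gusb of the other 14 reference probes, with a Pearson r of 0.995 over the 6 arrays. Gk was most like Hprt, with r of 0.972. G6pd2 was most like Gusb, with r of 0.927, and Ldhal6b was most like Tuba1b, with r of 0.688. G6pd2 and Gk ran in opposite directions, with r of -0.724. These values describe 6 arrays of which 2 were counted as 1 sample, and arrays of a group share its level.

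The spread between spots of 1 array was small beside that between samples for most of the enzymes. Over the arrays the SD between spots ranged from 0.01 to 0.11 for Gapdh, from 0.08 to 0.11 for Hprt, from 0.10 to 0.13 for Gusb and from 0.07 to 0.20 for Gk. It was 0.21 to 0.73 for G6pd2 and 0.10 to 0.53 for Ldhal6b. Of the 720 member spots, 28 were flagged, of which 23 were spots of Ldhal6b and 5 were spots of Gapdh, and no spot was saturated.

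With 20 spots the arrays of a group could be set against the error of their own means. Between HCC replicates 1 and 2 the differences were -0.03 for G6pd2, 0.01 for Gapdh, -0.01 for Gk, -0.01 for Gusb and 0.01 for Hprt, which were 0.16 to 1.87 times the SE from the spots. For Ldhal6b the difference was 0.14, or 3.22 times the SE. Between replicates 1 and 3 the difference was -1.27 for Hprt, 47.3 times the SE. It was 1.14 for G6pd2 (10.8 times) and -0.84 for Gk (15.3 times), and 0.01 for Ldhal6b. Arrays of the liver group differed by such multiples too. Between Apc+/+ replicates 1 and 2 the difference was 0.80 for Gusb (23.6 times the SE), 0.50 for Hprt (16.4 times) and 0.11 for G6pd2 (0.51 times). Between Apc+/+ replicates 2 and 3 it was 0.45 to 3.16 times the SE for the 6 enzymes. The spots are technical copies on 1 array, and their SE leaves out the spread between samples. The spots of a probe sit at the same places on every array, and this SE took them as unpaired. For G6pd2, and for Ldhal6b in liver, it includes the difference between the sides of the array described below. The multiples of these genes are therefore not comparable with those of the other enzymes.

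The wide spread of G6pd2 spots followed their place on the array. The split of the array columns at column 60 was chosen after the values were seen. On all 6 arrays the 9 spots from column 61 on were brighter than the 11 spots in columns 1 to 60, by 1.30-fold, 1.30-fold and 1.71-fold in HCC and by 2.29-fold, 2.32-fold and 2.54-fold in liver. On the linear scale the 2 sides differed by 81.4 to 141 intensity units, while the mean intensity of the columns 1 to 60 ranged from 61.8 to 466. The lowest spot of the right side was above the highest spot of the left side on every array.

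The change of G6pd2 was in the same direction on both sides and differed in size. From the spots in columns 1 to 60 alone the signal was 8.73, 8.76 and 7.40 in HCC and 6.23, 6.16 and 5.78 in liver, a change of 2.01 (SE 0.45, adjusted p 0.101). From those from column 61 on it was 9.10, 9.13 and 8.19 in HCC and 7.43, 7.29 and 7.30 in liver, a change of 1.31 (SE 0.32, adjusted p 0.122). The groups did not overlap on either side, and the difference between the sides in the size of the change was not tested.

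**Figure D4:**
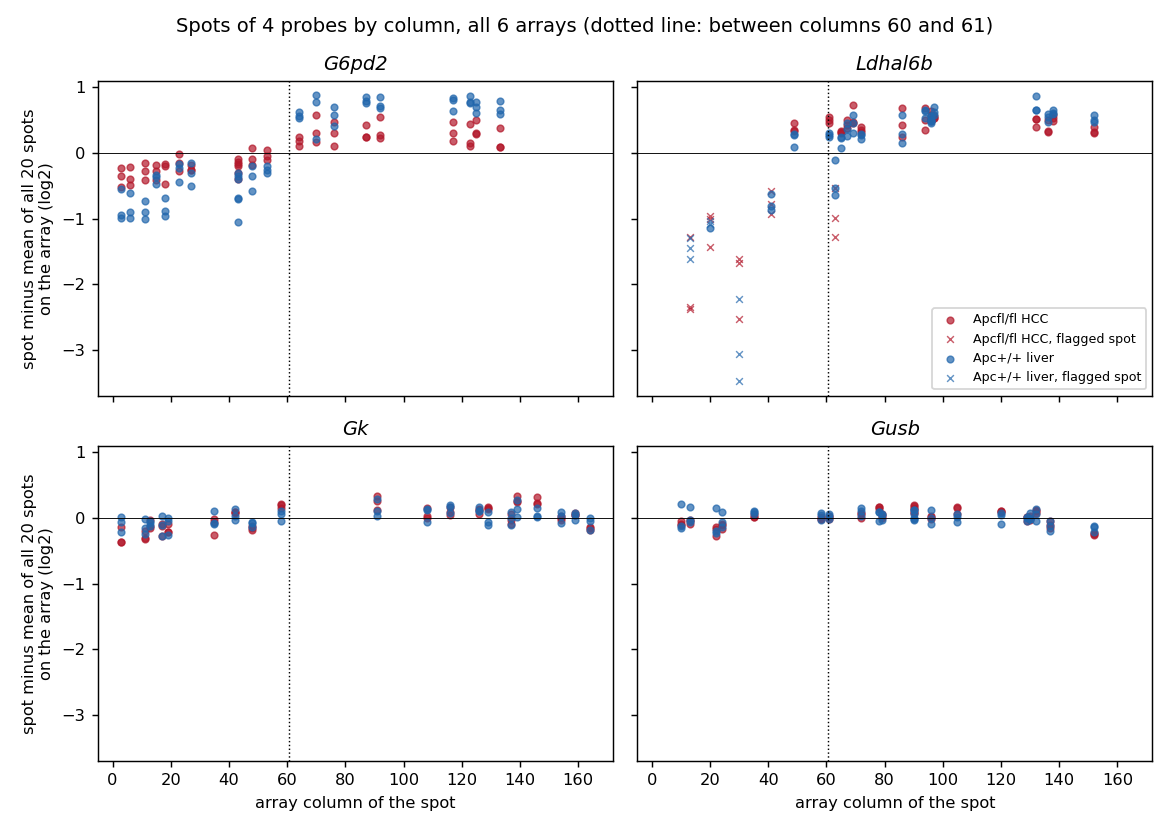
Log2 intensity of each spot minus the mean of all 20 spots of the probe on the same array (y axis) against the array column of the spot (x axis) for G6pd2, Ldhal6b, Gk and Gusb on all 6 arrays (Apcfl/fl HCC in red, Apc+/+ liver in blue, crosses for flagged spots). The spots of G6pd2 up to column 53 lie below those from column 64 on, with none between, on all 6 arrays and most of all in liver, the flagged spots of Ldhal6b lie at or below column 63, and the spots of Gusb stay near 0.

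Ldhal6b showed the same order of sides. Its 15 spots from column 61 on were 2.41-fold to 3.55-fold brighter than its 5 spots in columns 1 to 60 with flagged spots included, or by 60.3 to 94.3 intensity units. Of its 23 flagged spots, 20 were in columns 1 to 60. There were thus 1 to 3 unflagged spots per array on that side, and more of them on the liver arrays than on the HCC arrays. The change from the left columns alone was 0.80 (unadjusted p 0.0173, adjusted p 0.164) without flagged spots and 0.21 with them. That from the right columns alone was 0.07 without flagged spots and -0.021 with them.

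At the other 4 enzymes the sides were closer. The ratio of the right to the left spots was 1.0 to 1.19 for Gk, 0.90 to 1.1 for Hprt, 0.88 to 1.09 for Gusb and 0.89 to 1.04 for Gapdh. The changes from the left and the right columns were 1.34 and 1.43 for Gusb, 0.47 and 0.52 for Gapdh, and -0.28 and -0.21 for Gk. For Hprt they were -0.20 and -0.09.

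The single-spot probes of the whole array were also brighter on the right, but with a gradual rise over the columns around the split. Their median intensity from column 61 on was 2.11 to 2.63 times that in columns 1 to 60 on the 6 arrays, while the 90th percentiles were at a ratio of 0.958 to 1.1. These are different probes on the left and on the right, whereas the spots of a reference probe are copies of the same sequence.

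**Figure D5:**
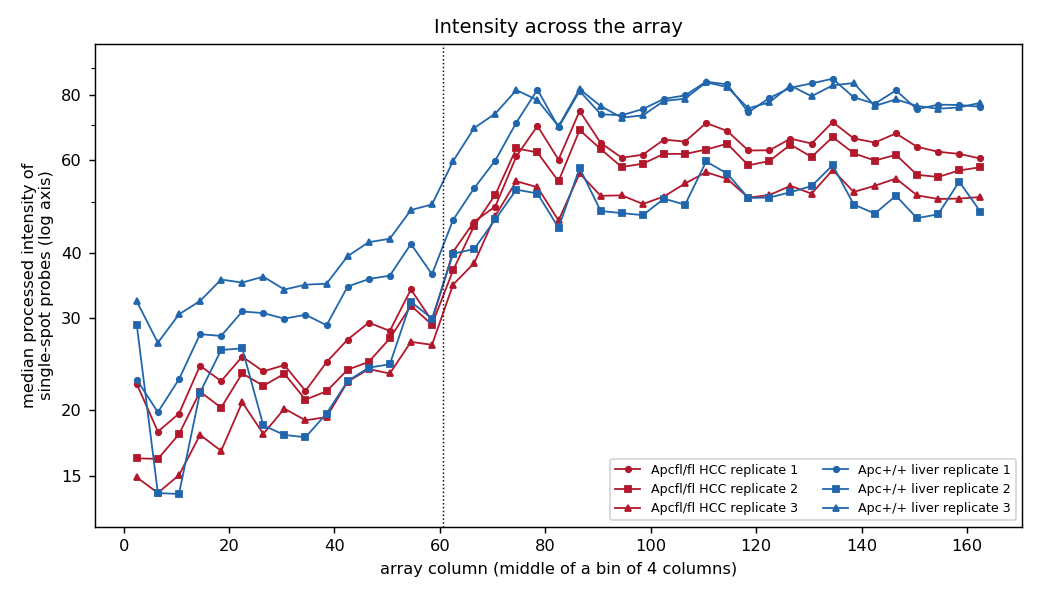
Median processed intensity of single-spot probes (y axis, log axis) in bins of 4 array columns (x axis, middle of the bin) for the 6 arrays (Apcfl/fl HCC in red, Apc+/+ liver in blue). On all 6 arrays the columns from 61 on, right of the dotted line, are brighter than those before it, by 2.11 to 2.63 times in the median over each side, and the rise is gradual across the line.

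The pathways of the enzymes were described from lists of genes that carried a name. Names other than those of the reference probes came almost wholly from the authors' table of called probes, so the named genes are selected for a difference and the counts are not independent evidence. Of 14 genes of the pentose phosphate pathway and NADPH supply, 5 were named and tested, 4 of them higher and 1 lower in HCC. Besides G6pdx, which passed, Pgd (6-phosphogluconate dehydrogenase) had a difference of 2.23 (adjusted p 0.0762), Taldo1 (transaldolase) of 1.02 and Pgls (6-phosphogluconolactonase) of -1.14, none past the threshold. The signal of Pgd was 11.03, 11.07 and 9.87 in HCC and 8.57, 7.93 and 8.21 in liver, and that of Taldo1 was 12.27, 12.29 and 11.32 in HCC and 10.75, 10.89 and 10.70 in liver. As for G6pd2, HCC replicate 3 was the lowest HCC array at both. Pgls gave 13.94, 14.05 and 15.17 in HCC and 15.46, 15.87 and 15.81 in liver, and there HCC replicate 3 was the highest HCC array.

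Of 20 glycolysis genes, 2 were named, Gapdh and Tpi1. Tpi1, the isomerase that feeds the second triose into the Gapdh step, gave 9.09, 9.17 and 9.93 in HCC and 8.33, 7.52 and 7.68 in liver, a change of 1.69 (adjusted p 0.104). Of 7 gluconeogenesis genes none was named. Of 8 lactate dehydrogenases and transporters, 2 were named, Ldhal6b and the mitochondrial D-lactate dehydrogenase Ldhd, with a difference of -1.21 (adjusted p 0.0585).

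Of 17 genes of glycerol and triglyceride metabolism, 3 were named. Beside Gk these were Aqp7, a glycerol channel, with a change of 2.05 (adjusted p 0.0873), and Gpd1, which interconverts glycerol 3-phosphate and dihydroxyacetone phosphate, with 1.73 (adjusted p 0.138), or 1.03 (adjusted p 0.521) with the slide row as a block. Of 19 genes of purine salvage and synthesis, 4 were named. Aprt, the adenine counterpart of Hprt, gave 15.57, 15.43 and 15.29 in HCC and 13.60, 14.01 and 14.21 in liver, a change of 1.45 (adjusted p 0.0670), beside -0.12 for Hprt itself. Pnp, which supplies the bases that Hprt takes up, had a difference of 0.94 (adjusted p 0.222), and the deoxynucleoside kinase Dck one of 1.57 (adjusted p 0.186). A row block gave 0.92 for Dck (adjusted p 0.675), and the means of 4.91 in HCC and 3.34 in liver were both below that of the brightest negative-control probe.

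Of 23 lysosomal hydrolases and membrane proteins, 3 were named. Lamp2, a protein of the lysosomal membrane, fell by 1.5 (SE 0.19, adjusted p 0.0378 by limma). It gave 14.94, 14.92 and 14.90 in HCC and 16.52, 16.42 and 16.30 in liver. With the slide row as a block the change of Lamp2 was -1.61 (adjusted p 0.204), and the adjusted p was 0.0751 to 0.186 when HCC replicate 3 or any 1 of the Apc+/+ replicates was left out, so that the call was lost in each of these. A second, dimmer Lamp2 probe had a difference of -1.24 (adjusted p 0.0767). Galns, a lysosomal sulphatase, had a difference of 1.39 (adjusted p 0.0616). Gusb and Lamp2, both of the lysosome, thus lay on opposite sides of 0.

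Markers of other cell types were read from the same selected names. Of 8 hepatocyte genes 3 were named and all were lower in HCC, with differences of -2.38 for Apoa1, -1.56 for Cebpa and -1.21 for Cps1, and Alb and Ttr were among those not named. With the slide row as a block Apoa1 was at -1.47 (adjusted p 0.429) and Cps1 at -0.65 (adjusted p 0.440). Of 8 leukocyte genes 2 were named and both were higher, with differences of 1.64 for Adgre1, or 0.97 with the row block (adjusted p 0.635), and 1.57 for Cd74. Spp1, the 1 of 6 cholangiocyte genes with a name, rose by 5.0 at its brightest probe (adjusted p 0.0351). Its 5 probes had differences of 1.87 to 5.0 with adjusted p-values of 0.0289 to 0.0536. With a row block the brightest had a change of 5.69 (adjusted p 0.185), and the adjusted p was 0.0522 to 0.178 when HCC replicate 3 or any 1 of the Apc+/+ replicates was left out, so that the call was lost in each of these. The difference was -1.46 for Pecam1 of the endothelium and -1.52 for Lrat of stellate cells, whose HCC mean of 5.41 was below that of the brightest negative-control probe. No erythroid gene was named. Of 6 germ cell genes, given because G6pd2 and Ldhal6b are known from testis, Prm1 and Tnp1 were named, with differences of 1.69 and -1.41. Apart from Spp1 none of these passed the adjusted threshold. The part of such cells in the changes of G6pd2 and Gusb was not tested.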

How the data were processed

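Spots were quantified by the authors in Agilent Feature Extraction (version 11.0.1.1, per the submitters' processing notes). The deposited scanner files hold processed intensities per spot on a linear scale, after background subtraction and not normalised between arrays. The authors also deposited a table of the probes they had called, with normalised log2 values. It holds their own fold changes and p-values, which were not used, and here it served only to name probes.

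Control spots, spots with a non-uniformity or population outlier flag and 1200 spots of 20 negative-control probes were left out. Log2 intensities were averaged per probe and the 59631 probes were quantile normalised, as named in the study's methods. A probe was tested when well above background on at least 3 of 6 arrays, with the flag on at least 50% of its spots. Groups were compared with limma 3.58.1 in R 4.3.3 (lmFit and eBayes, two-sided, no covariate), with Benjamini-Hochberg adjustment over all 45640 tested probes. The fits were run on simulated data with independent noise and planted changes, which held no effect of slide row or array column. Counting 5 samples rests on a mean chi-square below 1 between Apcfl/fl replicates 1 and 2. Precision is limited by the small number of samples.

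The members, gene lists and tests were chosen with earlier results of these data known. Named genes are the 6 members, for each the most alike of the other reference probes, and up to 4 genes per pathway list with the largest change, each gene by its brightest probe. Other genes named were chosen after their values were seen. Promoter windows were taken from RefSeq (GRCm38.p6), where all 6 members matched. The alternatives were other background correction, scaling, spot averages, filters, sample counts, blocks and tests. The split by array column, the fit of slide row 1 alone, and the row block and left-out arrays for the named pathway and marker genes were added after the data were seen. The replicate numbers gave no pairing, as the deviations of same-numbered arrays from their group means correlated by 0.06, -0.07 and 0.04.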

Additional observations from a re-analysis of the deposited data

How the results depend on the processing

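G6pd2, Gusb, Gapdh and Gk kept the sign of their change under each of the 25 alternatives run. G6pd2 ranged from 1.24, with normexp background correction, to 2.27, without Apcfl/fl replicate 3, and Gusb from 0.86, with the slide row as a block, to 1.67, without Apc+/+ replicate 1. With the 6 arrays as 6 samples both passed the adjusted threshold, at 1.89 for G6pd2 and 1.45 for Gusb. With the replicate number as a block on these 6 arrays the values were the same and the adjusted p-values were 0.0572 and 0.0658, so neither passed, and the number of probes past the threshold was 1075. The block changed no call of the other 4 enzymes. Hprt turned to 0.23 with scaling to the 75th percentile and, with leave-one-out values from -0.76 to 0.046, to 0.046 without Apc+/+ replicate 1. Ldhal6b was largest at 0.80, from the left columns without flagged spots, and turned to -0.22 when centred on the other reference probes and to -0.021 from the right columns with flagged spots kept. The cause of these differences was not tested.

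The 878 probes past the adjusted threshold became 1651 with normexp and 1438 when centred on the other reference probes (372 higher, 1066 lower, against 469 and 409). They became 277 without a filter on dim probes, 1966 with all 6 arrays above background and 2118 above the brightest negative-control probe. With 6 arrays they became 3441. With Student's t-test on the 5 samples and the same adjustment they became 3, while 3517 passed the threshold of the study's methods. Under the trend and robust options of eBayes they became 1900. By limma they became 0 when Apc+/+ replicates 2 and 3 were averaged and 0 with the slide row as a block, where 4534 and 3964 probes passed the threshold of the study's methods. Leaving out 1 array gave 0 to 973, with 361 without Apcfl/fl replicate 3, 0, 1 and 0 without Apc+/+ replicates 1, 2 and 3.

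With 2 samples against 3, intervals were wide, and even the narrowest of the members, that of Ldhal6b, ran from -0.32 to 0.68. Signals near 5.50, the mean of the brightest negative-control probe, give no firm size of a change. This touches, among others, the single-spot Gk probe, Dck, Lrat, Pecam1 at 5.55 in HCC, and Gpd1 at 5.59 and Aqp7 at 5.79 in liver. It also touches G6pd2, at 6.64 in liver over all spots and at 5.78 to 6.23 there from the spots in columns 1 to 60.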

Other observations

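Calls over the whole array differed in number between the sides of the array. Of 13850 tested single-spot probes in columns 1 to 60, 2.70% passed the adjusted threshold, against 1.58% of 31775 from column 61 on. The median size of the change was 0.47 and 0.34 on the log2 scale, and 15.4% and 9.36% passed the threshold of the study's methods. Between 41% and 71.8% of the probes in columns 1 to 60 were well above background, and between 56.4% and 89.2% of those from column 61 on. Whether the place on the array or the choice of probes placed there goes with these shares was not tested.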
